A study of Mus musculus with 12 samples.

Results

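The effect of FOXA2 was measured in TRAMP-C cells by setting arrays of cells that had received the FOXA2 plasmid against arrays of cells that had not. All 12 arrays of the series entered the comparison, 6 with the plasmid and 6 without. Each array with FOXA2 was matched to the array of the same oxygen level, replicate number and HIF-1a plasmid, which gave 6 pairs: 2 in normoxia and 4 in hypoxia, 3 with the HIF-1a plasmid and 3 without. TRAMP-C is a line grown from a prostate tumour of a male C57BL6 TRAMP mouse, a strain in which a viral T antigen driven by a fragment of the probasin promoter gives rise to prostate tumours. The labels describe these cells as wild-type, so no group carries a deletion.

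The groups with the plasmid were FOXA2_NORM (1 array) and FOXA2_HYPOXIA (2 arrays), which received FoxA2 alone, and FOX_HIF_NORM (1 array) and FOX_HIF_HYPOXIA (2 arrays), which received FoxA2 together with HIF-1a. The groups without it were CONTROL_NORM (1 array) and CONTROL_HYPOXIA (2 arrays), which received the empty vector pcDNA, and HIF1a_NORM (1 array) and HIF1a_HYPOXIA (2 arrays), which received HIF-1a. All 8 groups were transfected by nucleofection, left for 48 h and then held for 12 h in normoxia or at 1% oxygen before 500 ng of total RNA was amplified for a Mouse-6 BeadChip. The labels do not say that the duplicates came from separate cultures, so the spread that the p-values rest on may be technical only.

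FOXA2 is a forkhead transcription factor of the FOXA family. FOXA proteins bind compact chromatin and open it for other factors, and FOXA2 directs the formation of endoderm and, in the adult, genes of liver, lung and pancreas. In the prostate FOXA1 is the family member of normal luminal cells, while FOXA2 marks neuroendocrine tumours, and the study asked how FOXA2 acts together with HIF-1a under hypoxia.

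Levels are log2 intensities after background correction and quantile normalization, and a difference is the mean over the 6 pairs of the array with FOXA2 minus its partner, with its standard error from limma. A call required an adjusted p under 0.05 over the 9609 genes tested. An array had a mean probe intensity of 298 to 559 and between 15322 and 17182 detected probes. The arrays lay on 2 slides. Of the pairs, 4 lay within a slide, and the normoxia pair with HIF-1a and the hypoxia replicate 1 pair with HIF-1a had the FOXA2 array on slide 2 and its partner on slide 1. Both replicate 2 pairs lay on slide 2, so that slide 2 and replicate 2 cannot be told apart within a slide. Of 9 markers of prostate epithelium, 3 were measured: Krt14, a basal keratin, averaged 8.48 on the arrays with FOXA2 and 8.64 on those without, while Cdh1, the epithelial cadherin, averaged 5.91 and 5.87 and the luminal keratin Krt8 averaged 5.58 and 5.49, both near the detection limit. Krt18, Krt5, Epcam and Hoxb13 were not among the detected genes. Vim, the mesenchymal intermediate filament, averaged 12.83 with FOXA2 and 12.77 without it.

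The FOXA2 plasmid was followed by a very small set of called genes. Of 9609 genes, 3 were called (0.0312%), and all 3 rose with FOXA2: Foxa2 itself, Nckap1l, a subunit of the actin-regulating WAVE complex known from blood cells, and Hectd2, an E3 ubiquitin ligase of the HECT class. With limma 0 genes were called lower (0%). At an unadjusted p under 0.05 there were 75 genes higher and 114 lower. These 189 of 9609 genes are fewer than the 0.05 share that the threshold alone would pass. Foxa2 and Nckap1l were also the 2 genes that differed by more than 2-fold on average. The median absolute difference of all genes was 0.06 on the log2 scale, the 95th percentile 0.21 and the 99th 0.36.

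**Figure D1:**
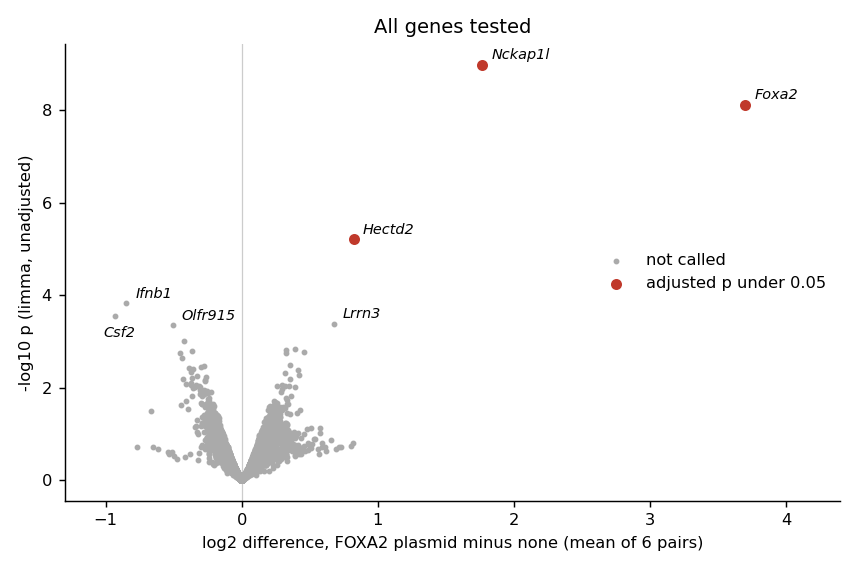
Mean log2 difference of the 6 pairs, FOXA2 plasmid minus none (x axis), against the unadjusted limma p on a negative log10 scale (y axis), with one point for each of the 9609 genes. The 3 called genes, Foxa2, Nckap1l and Hectd2, stand apart on the right, and Ifnb1, Csf2 and Olfr915 lead the genes that were lower without being called.

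Foxa2 was read by a single probe, which cannot tell the transcript of the plasmid from that of the cells' own gene. Its level in the 6 arrays with the plasmid was 9.27 at the lowest, 10.36 at the median and 10.98 at the highest, against 6.14, 6.46 and 7.07 in the 6 arrays without it. The groups did not overlap, so that the level matched the label on each array. Foxa2 was detected on all 12 arrays, so the cells without the plasmid also gave a signal above background, highest in normoxia at 7.07 with pcDNA and 6.85 with HIF-1a. The rise averaged 3.70 ± 0.23 (SE; 13.0-fold; adjusted p = 3.66e-05). In a bulk sample a larger share of cells carrying the plasmid and more transcript per cell cannot be told apart.

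The size of the Foxa2 rise differed between pairs. It was 2.89 in the normoxia pair, 3.58 in the normoxia pair with HIF-1a, 2.81 and 4.84 in the hypoxia pairs of replicates 1 and 2, and 3.84 and 4.24 in the hypoxia pairs with HIF-1a of replicates 1 and 2. Replicate 2 thus held the largest rise, on the array with FOXA2 alone in hypoxia. Foxa2 ranked first among all genes that were higher in 5 of the 6 pairs, and ranked ninth in the hypoxia replicate 1 pair with HIF-1a, in which many genes differed. Within slide 1 the rise averaged 2.85 and within slide 2 it averaged 4.54.

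Nckap1l had log2 levels of 6.17, 6.36 and 6.52 (lowest, median and highest) in the arrays with FOXA2, against 4.43, 4.60 and 4.83 in those without. It was the one gene detected on all 6 arrays with FOXA2 and on 0 of the 6 others, where its probe was not well above background. Its rise of 1.77 ± 0.09 (SE; adjusted p = 9.92e-06) is therefore at least 2.11-fold, from the mean of the arrays with FOXA2 over a mean set, per array, at the higher of the lowest detected signal and the probe's own. Nckap1l entered the test only through its detection on the arrays with FOXA2, and its partner values were background signal. It had the smallest p of all genes. The pairs gave differences between 1.49 and 2.09, a narrower spread than that of Foxa2. The lowest of them stood in the hypoxia replicate 2 pair, in which Foxa2 rose most. As Foxa2 was detected on both sides, the p and spread of the 2 genes are not measured alike. Within slide 1 the difference was 1.80 and within slide 2 it was 1.62. One named probe read this gene, so the rise rests on 1 probe.

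Nckap1l was the 1 called gene of its complex. Nckap1, its paralogue in most other cells, averaged 11.41 with FOXA2 and 11.38 without it, a difference of 0.03 (95% interval −0.17 to 0.24). Of 15 measured members of the WAVE complex and the Arp2/3 actin-nucleating machinery, out of 23 listed, 14 were not called, and the list's median difference was 0.02 against −0.01 for all genes. Rac1, the GTPase that activates the complex, differed by 0.14 (interval −0.18 to 0.46), and its pairs were −0.27 to 0.77. Of 30 blood cell markers 11 had a named probe and 2 were measured. Csf1r, the macrophage growth factor receptor, was detected on 2 arrays with FOXA2 and 3 without, with a difference of 0.08 (interval −0.39 to 0.55), and Cd14, a receptor for bacterial lipopolysaccharide, differed by 0.02 (interval −0.25 to 0.30). The pan-leukocyte marker Ptprc and the myeloid markers Itgam and Tyrobp were not among the detected genes. The summed intensity of the measured blood cell markers was 403 to 884 with FOXA2 and 384 to 624 without it.

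Hectd2 was at 7.52, 8.02 and 8.89 (lowest, median and highest) with FOXA2, against 6.58, 7.38 and 7.82 without it. The groups overlapped, since its level also varied between pairs, but the array with FOXA2 was the higher in 6 of 6 pairs, by 0.53 to 1.17. The rise averaged 0.82 ± 0.10 (SE; 1.77-fold; adjusted p = 0.0194). A second detected Hectd2 probe was higher in 6 of 6 pairs too, by 0.90 on average, and one more probe was detected on 0 arrays. With each detected probe tested as its own row, a setting chosen after seeing the data, the first Hectd2 probe had an adjusted p of 0.0425 and the second of 0.0609. The Hectd2 call was lost in 5 of the 6 fits that left out 1 pair, whose adjusted p ran from 0.0314 to 0.148, the call holding without the hypoxia replicate 1 pair. With slide as a term the difference was 0.85 (adjusted p = 0.139), and it was 0.85 both within slide 1 and within slide 2.

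**Figure D2:**
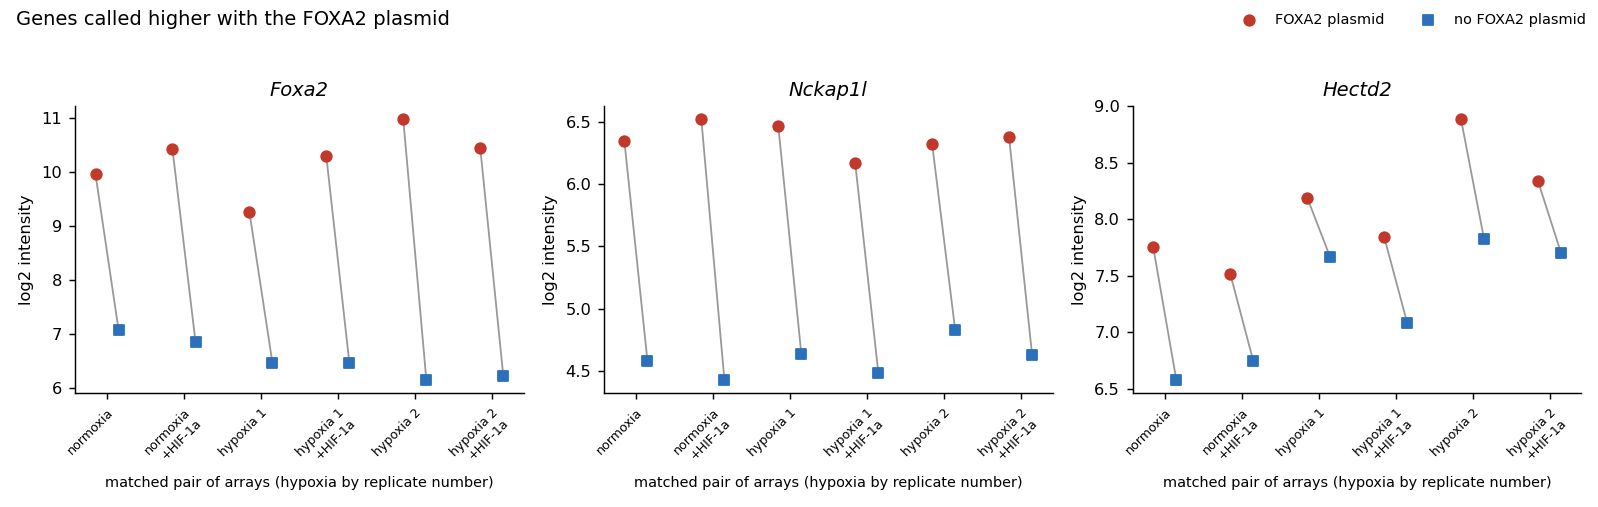
Log2 intensity (y axis, a separate range for each gene) of the 3 called genes in the 6 matched pairs (x axis), with circles for arrays with the FOXA2 plasmid and squares for arrays without it, joined within a pair. Foxa2 and Nckap1l have no overlap between circles and squares, while Hectd2 is higher in each pair but its circles reach down to 7.52 and its squares up to 7.82.

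The genes that were lower in every pair were led by a pair of cytokine genes, neither of which was called. Ifnb1, which encodes interferon beta, had levels of 4.43, 4.80 and 4.89 (lowest, median and highest) with FOXA2, against 5.25, 5.49 and 6.09 without it. It was the one gene detected on 0 of the 6 arrays with FOXA2 and on all 6 others, and its groups did not overlap. It thus entered the test only through its detection on the arrays without FOXA2. The difference was −0.85 ± 0.15 (SE; adjusted p = 0.362), and as the probe was not well above background with FOXA2 the level there was at least 1.28-fold lower. Csf2, which encodes the growth factor GM-CSF, was at 4.51, 5.30 and 6.25 with FOXA2 and at 5.65, 6.44 and 7.01 without it, lower in 6 of 6 pairs, with overlap between the groups. Csf2 was detected on 4 arrays with FOXA2 and 6 without it. Its difference was −0.93 ± 0.18 (SE; adjusted p = 0.529).

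In both genes replicate 2 held the wide gaps. Ifnb1 differed by −1.66 in the hypoxia replicate 2 pair and by −1.14 in its partner pair with HIF-1a. The other 4 pairs gave −0.68 to −0.48. Csf2 differed by −1.62 and −1.71 in the replicate 2 pairs and by −0.67 to −0.46 in the other 4. In the hypoxia replicate 2 pair Ifnb1 and Csf2 ranked first and second among all genes that were lower, whereas in the normoxia pair they ranked 83rd and 62nd. Within slide 1 the differences were −0.52 for Ifnb1 and −0.48 for Csf2, and within slide 2 they were −1.40 and −1.67. In that slide 2 fit of 4 arrays limma gave adjusted p of 1.89e-06 and 1.07e-08. The fit had 2 pairs and 1 residual degree of freedom. It holds only the replicate in which the wide gaps were seen, so these p-values lend the 2 genes no support. With slide as a term over all arrays the differences were −0.96 and −1.07 (adjusted p = 0.523 and 0.679).

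The 250 bases before the start of each of these 2 genes are shown because they lead the lower genes, in lower case throughout, since neither strand holds the FOXA-type motif TGTTTAC, its close variant with a G near the end (TGTTTGC) or the form with an A in the second place (TATTTAC). They are RefSeq sequences on GRCm38.p6, printed 5′ to 3′ along the gene, from chr4:88522795-88523044 (minus strand) for Ifnb1 and chr11:54249900-54250149 (minus strand) for Csf2.
Ifnb1: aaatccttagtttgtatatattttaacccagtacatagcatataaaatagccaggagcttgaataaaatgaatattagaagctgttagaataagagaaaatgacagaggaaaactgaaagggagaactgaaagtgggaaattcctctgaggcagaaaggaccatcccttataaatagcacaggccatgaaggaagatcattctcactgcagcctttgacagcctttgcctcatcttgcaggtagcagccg
Csf2: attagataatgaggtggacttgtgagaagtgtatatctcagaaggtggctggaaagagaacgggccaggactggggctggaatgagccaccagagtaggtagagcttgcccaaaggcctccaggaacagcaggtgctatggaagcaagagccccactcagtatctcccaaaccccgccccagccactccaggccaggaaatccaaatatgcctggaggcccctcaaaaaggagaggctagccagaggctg
Of the 20 genes that lead the 2 directions, 13 had a promoter of this length in the RefSeq table, and 0 of the 13 held a motif on either strand. No promoter was available for Nckap1l, Hectd2, Lrrn3, Rasgrp4, Olfr915, Serpinb13 or Hoxc10. Of the called genes only Foxa2 itself was therefore searched. Of all 32851 RefSeq promoters, 9.73% held at least 1 of the 3 motifs, with 3.17% for TGTTTAC, 4.3% for TGTTTGC and 2.73% for TATTTAC. The absence of these letters from a window says nothing about binding elsewhere.

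Cytokine and acute-phase genes were then gathered in a list of 58 that includes Ifnb1 and Csf2. It was chosen after the values of Ifnb1 and Csf2 had been seen, so that it gets no test. Of the 39 that were measured, 33 had a negative mean difference and 6 a positive one, 0 were called by limma, and the median was −0.08 against −0.01 for all genes, of which 56.8% were negative. At an unadjusted p under 0.05 there were 5 lower, Ifnb1 and Csf2 among them, and 1 higher. Cxcl2, a neutrophil chemokine, differed by −0.44, the acute-phase gene Saa3 by −0.41 and Ccl4, a macrophage and T cell chemokine, by −0.38. Saa3 was detected on all arrays, but Cxcl2 on only 2 arrays with FOXA2 and 2 without it, and Ccl4 on 4 and 4. Lcn2, an iron-sequestering acute-phase protein, differed by −0.34, with pairs from −1.10 to 0.38. Rel, an NF-kB subunit, was higher in 6 of 6 pairs, by 0.36 ± 0.11 (SE; adjusted p = 1), most of all in the hypoxia replicate 2 pair at 0.88. Interleukin 6 (Il6) differed by −0.10 and Ccl2 by −0.12.

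Lower members were most frequent in the replicate 2 pairs. In the normoxia pair 21 of the 39 genes were lower, in the normoxia pair with HIF-1a 22, in the hypoxia replicate 1 pairs 24 and 25, and in the hypoxia replicate 2 pairs 29 and 28. Of all 9609 genes, 5868 were lower in the hypoxia replicate 1 pair with HIF-1a and 4614 to 4994 in each other pair. In that pair the list's median of −0.09 was near the −0.10 of all genes. The list's median was −0.04 within slide 1 and −0.19 within slide 2, and −0.07 without the replicate 2 pairs. Interferon-stimulated genes, which respond to interferon beta, did not move one way over the pairs. Of 46 measured members of 52, 0 were called by limma and 0 had an unadjusted p under 0.05, with a median of −0.01. In the hypoxia pairs of replicate 1, 20 of the 46 were higher with HIF-1a and 36 without it, whereas in those of replicate 2, 12 were higher with HIF-1a and 11 without it. Of all 9609 genes, 3738 were higher in the hypoxia replicate 1 pair with HIF-1a and 4720 to 4984 in each other hypoxia pair. The median of the interferon-stimulated genes was 0.09 within slide 1 and −0.19 within slide 2. Bst2, an antiviral membrane protein, had the smallest p of the list, with a difference of −0.29 (interval −0.59 to 0.01) and pairs from −0.82 to 0.23.

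**Figure D3:**
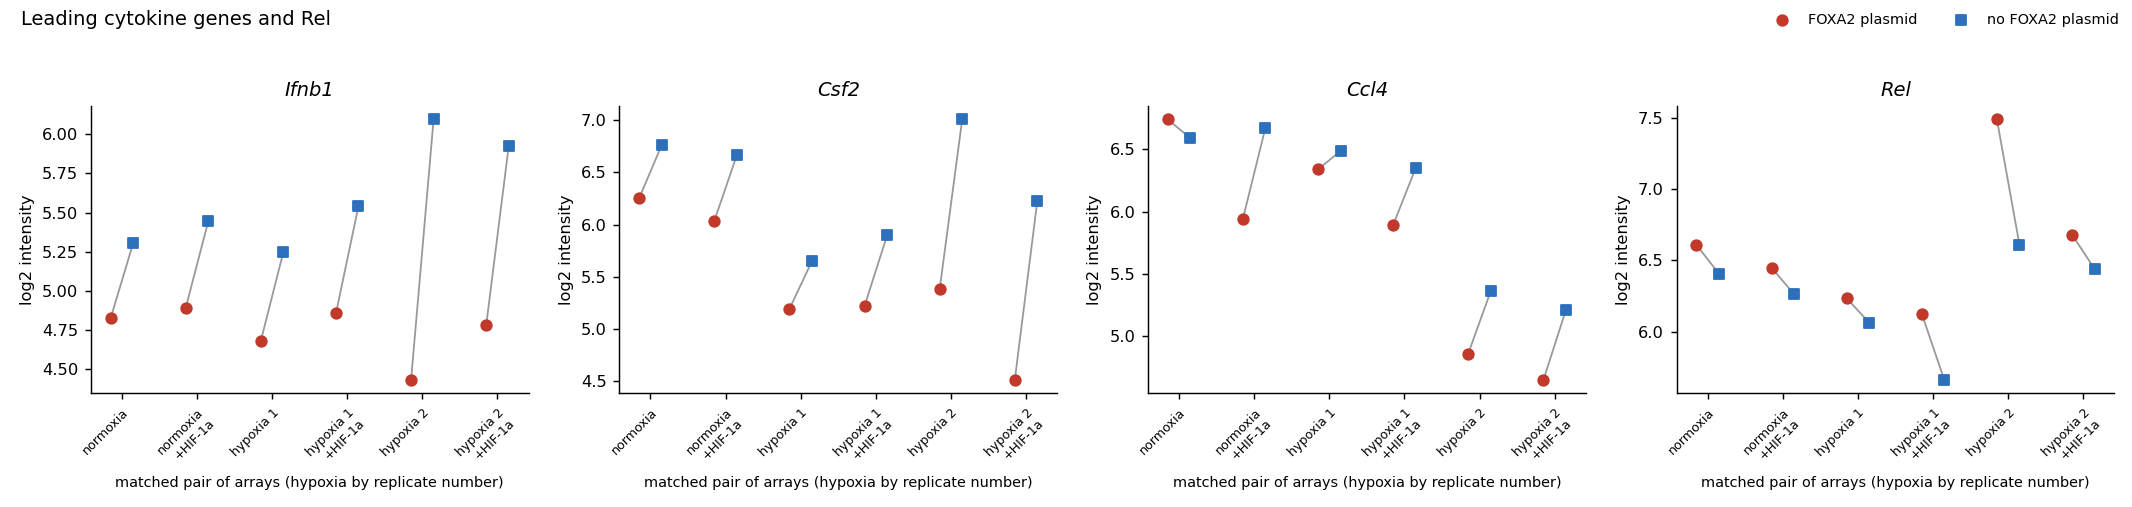
Log2 intensity (y axis, a separate range for each gene) of Ifnb1, Csf2, Ccl4 and Rel in the 6 matched pairs (x axis), with circles for arrays with the FOXA2 plasmid and squares for arrays without it. Ifnb1 and Csf2 are lower with FOXA2 in each pair, with the widest gaps in the 2 hypoxia replicate 2 pairs, Ccl4 is lower in 5 of 6, and Rel is higher in each.

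Agreement across pairs was reached by few genes. The array with FOXA2 was the higher in all 6 pairs for 78 genes (0.812%) and the lower in all 6 for 101 (1.05%). Signs drawn at random in each pair would give a larger share in each direction. All 6 arrays with FOXA2 lay above all 6 others for 2 genes (0.0208%), Foxa2 and Nckap1l, and below them for 2 (0.0208%), Ifnb1 and Zfp609. Zfp609, a zinc finger protein named here after its values were seen, differed by only −0.17.

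Among genes higher in all 6 pairs, those after the called ones were Lrrn3, Gnai1, Mss51, Khsrp, Satb1, Rasgrp4 and Slc46a3. Lrrn3, a leucine-rich repeat membrane protein of neurons, was detected on 4 arrays with FOXA2 and 0 without it. Its level was 4.91, 5.43 and 5.68 (lowest, median and highest) with FOXA2, against 4.50, 4.65 and 4.96 without it, a difference of 0.68 ± 0.14 (SE; adjusted p = 0.614), and at least 1.05-fold. It exceeded its partner by 0.90 to 1.19 in the normoxia pair and both replicate 2 pairs, and by 0.25 to 0.42 in the other 3. Gnai1, an inhibitory G protein subunit, differed by 0.39, and its pairs ran from 0.02 to 0.61. Khsrp, which promotes the decay of AU-rich transcripts, differed by 0.46. Its hypoxia pairs with HIF-1a gave 0.85 and 0.80, and the other 4 pairs gave 0.18 to 0.43. Satb1, a chromatin organizer, differed by 0.36, Mss51, a mitochondrial protein, by 0.33 and Rasgrp4, a Ras activator, by 0.32. Gnai1, Khsrp, Satb1, Mss51 and Rasgrp4 each had an adjusted p of 1, as had the lysosomal carrier Slc46a3 at 0.42. Slc46a3 was detected on 4 arrays with FOXA2 and 0 without it.

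Among genes lower in all 6 pairs, those after Ifnb1 and Csf2 were Olfr915, Serpinb13, Hoxc10, Zc3hav1, Eef2k, Lce1g, Scai and Ppm1h. The olfactory receptor gene Olfr915 was detected on 0 arrays with FOXA2 and 4 without it, with a difference of −0.51 ± 0.10 (SE; adjusted p = 0.614) and at least 1.10-fold lower. Zc3hav1, an antiviral zinc finger protein, differed by −0.45, with −0.76 and −0.79 in the hypoxia pairs with HIF-1a, −0.57 in normoxia with HIF-1a and −0.20 to −0.18 in the pairs without it. Eef2k, the kinase that restrains the translation elongation factor eEF2, differed by −0.27 and was the steadiest of them, at −0.32 to −0.23 over the 6 pairs. It was detected on only 3 arrays with FOXA2 and 4 without it, and was not well above background on the others. Serpinb13 was detected on 0 arrays with FOXA2 and 2 without it, and Hoxc10 on 1 and 1. Lce1g, a cornified envelope gene, ranged over the samples from 4.88 to 8.06 with FOXA2 and from 5.08 to 8.46 without it, yet differed by −0.39 on average within pairs. Scai, an inhibitor of invasion, differed by −0.33 and the phosphatase Ppm1h by −0.26. A second detected Scai probe averaged −0.05 and was higher with FOXA2 in 4 of 6 pairs.

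**Figure D4:**
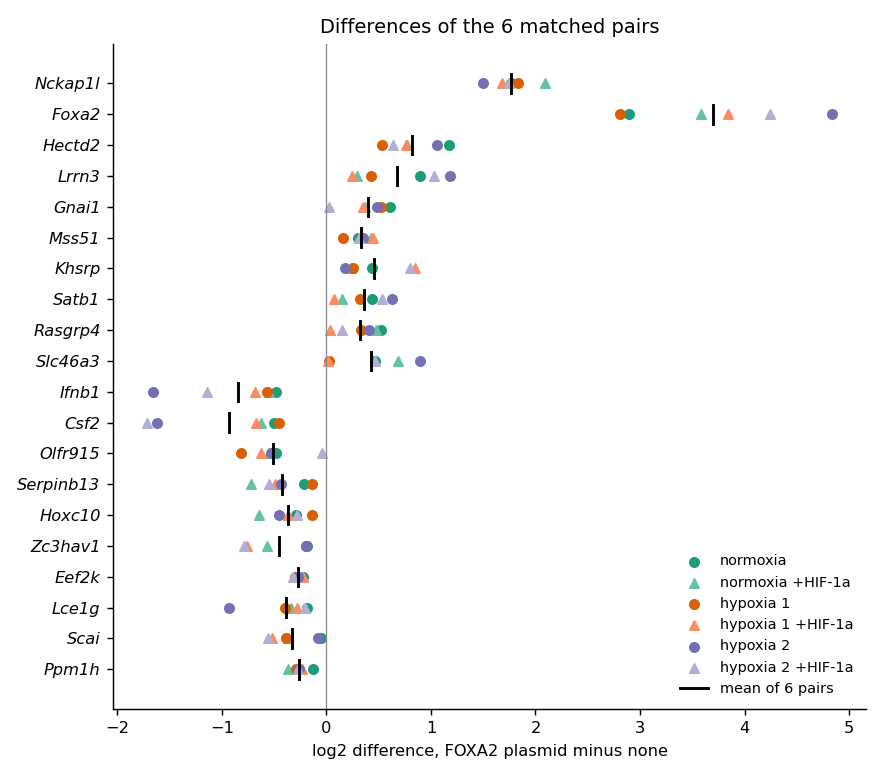
Log2 difference, FOXA2 plasmid minus none (x axis), in each of the 6 pairs (coloured circles without and triangles with HIF-1a) for the 10 leading genes in each direction (rows), with the mean of the 6 pairs as a black bar. Foxa2 ranges from 2.81 to 4.84, Nckap1l from 1.49 to 2.09, and the 2 replicate 2 pairs lie farthest to the left for Ifnb1 and Csf2.

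The genes that the study followed up showed no called FOXA2 effect. Hes6, a Hes family transcription factor of neuronal and neuroendocrine cells, lay between 6.92 and 9.15 with FOXA2 and between 6.86 and 8.99 without it, with a difference of −0.13 (interval −0.43 to 0.16). Its pairs included −0.87 and −0.31 in the hypoxia replicate 1 pairs, with and without HIF-1a, and lay between 0.05 and 0.16 in the other 4. Sox9, a developmental transcription factor, differed by −0.08 (interval −0.26 to 0.09). Kdm3a, a histone demethylase induced by HIF, differed by 0.05 (interval −0.14 to 0.24). Hif1a differed by −0.02 (interval −0.35 to 0.30) between arrays that were balanced for the HIF-1a plasmid.

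In the forkhead family no gene besides Foxa2 was called, where 0.0312% of all genes were. Of 44 forkhead genes 21 were measured, and Foxa2 was the 1 called. The other 20 differed by −0.20 to 0.20, with Foxs1 and Foxp4 at these ends. Foxo1 and Foxo3, forkhead factors of the insulin and stress response, differed by −0.10 and −0.17, and Foxm1, of dividing cells, by 0.14. The Foxa3 probe was detected on 0 of the 12 arrays.

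Partners of FOXA proteins were next. Of 32 listed 26 were measured and 0 were called by limma, with 0 at an unadjusted p under 0.05, and the median was −0.02. Of all 9609 genes, 3 were called and 189 had an unadjusted p under 0.05. Among the Groucho corepressors, which FOXA proteins recruit, Tle3 differed by 0.20, Tle1 by 0.12 and Tle6 by −0.14. Siah2, the ubiquitin ligase that acts on prolyl hydroxylases, differed by −0.04. The GATA factors Gata2, Gata3, Gata4 and Gata6 differed by −0.17, −0.09, −0.01 and −0.18. Vhl, the HIF ubiquitin ligase subunit, had the widest mean of the list at 0.57 (interval −0.53 to 1.67), and its level ran from 8.41 to 10.77 with FOXA2 and from 6.05 to 10.78 without it.

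Genes linked to FOXA2 in liver, endoderm and lung were scarcely measured here, while most of its listed fasting and fat oxidation targets were measured. Of 48 liver and endoderm targets 17 had a named probe and 3 were detected. Their differences were −0.13 for the keratin Krt19, −0.05 for haptoglobin (Hp) and 0.00 for transferrin (Trf). Albumin (Alb), transthyretin (Ttr), Hnf4a and Pdx1 were not among the detected genes. Of 29 genes of fasting, ketone production and fat oxidation 18 were measured and 0 were called by limma, with 0 at an unadjusted p under 0.05 and a median of 0.00. Hadhb, of the mitochondrial trifunctional protein, had a mean of 0.33 that came from the hypoxia replicate 1 pair with HIF-1a at 2.0, the other 5 pairs lying between −0.15 and 0.08. Of 27 lung and secretory genes 7 had a named probe, 4 were measured and 0 called. Muc1, a membrane mucin, was detected on 4 arrays with FOXA2 and 0 without it, with a difference of 0.17 (interval −0.07 to 0.41).

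No neuroendocrine marker was called, where 3 of all 9609 genes (0.0312%) were, so 0 in a list of this size is not a result about the markers. Of 42 listed 20 had a named probe and 8 were measured. Of the 8, 0 were called by limma, with 1 lower at an unadjusted p under 0.05 and a median of 0.05. That gene, Eno2, the neuron-specific enolase, was at 7.32, 7.99 and 9.01 (lowest, median and highest) with FOXA2, against 7.70, 8.37 and 8.90 without it. It was lower in 5 of 6 pairs, with a difference of −0.30 ± 0.10 (SE; adjusted p = 1). Syn1, a synaptic vesicle protein, differed by 0.15, while its other detected probe averaged −0.12. Gap43, of growing axons, differed by 0.20. The markers Chga and Syp were not among the detected genes. Epithelial genes had 13 measured of 38, 0 called by limma, 0 at an unadjusted p under 0.05 and a median of −0.07. Mesenchymal genes had 34 measured of 37, 0 called by limma, 1 at an unadjusted p under 0.05 and a median of 0.03. That gene was Ccn2, a matrix-associated growth regulator, with 0.24 (interval 0.02 to 0.45).

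**Figure D5:**
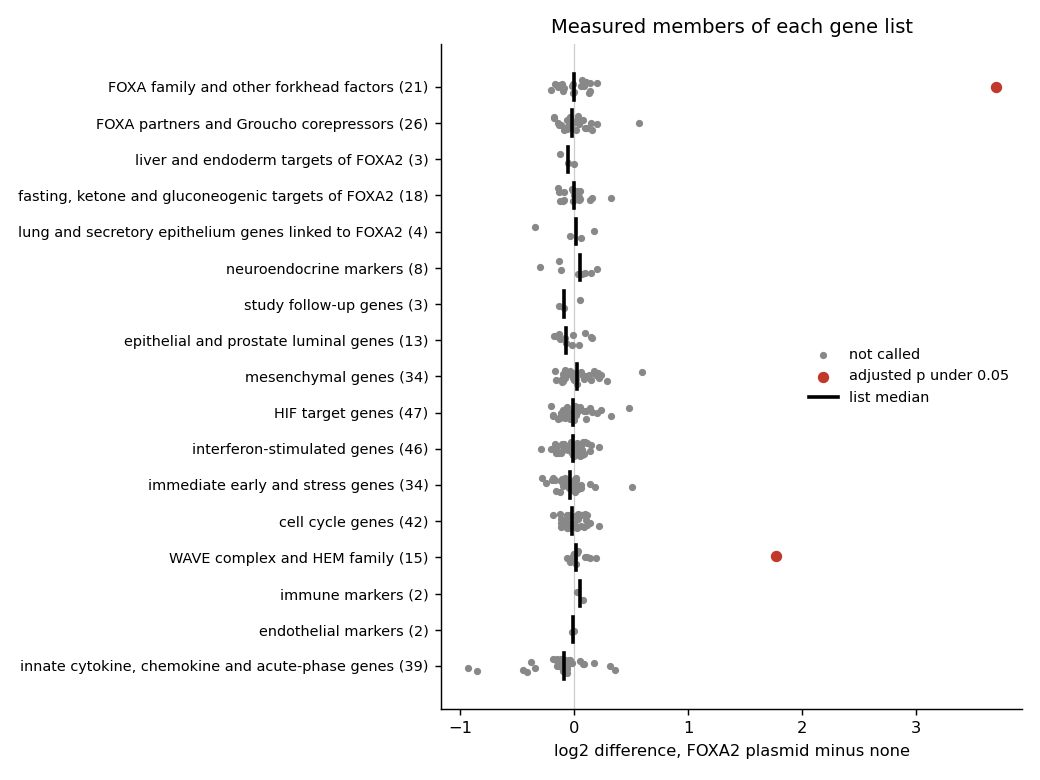
Mean log2 difference of the 6 pairs, FOXA2 plasmid minus none (x axis), for each measured member of each gene list (rows, with the number of measured members), with called genes as large dots and list medians as black bars. The medians lie close to 0, between −0.08 and 0.05, and the 2 called members are Foxa2 and Nckap1l.

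Targets of HIF, the factor paired with FOXA2 in this design, had 47 measured members of 54. None was called (0 by limma, 1 lower at an unadjusted p under 0.05). Of all 9609 genes, 3 were called by limma and 114 were lower at an unadjusted p under 0.05. The median of the HIF targets was −0.01, with −0.02 over the hypoxia pairs and 0.00 over the normoxia pairs. Ddit4, a stress-induced inhibitor of mTOR, differed by −0.20 and had its gaps in replicate 1, where the 4 pairs differed by −0.42 to −0.20, against 0.02 and 0.05 in replicate 2. Vegfa, the vascular growth factor, differed by −0.12, the lactate dehydrogenase Ldha by 0.00 and the glucose transporter Slc2a1 by 0.00. The lactate exporter Slc16a3 had the largest mean, 0.48, which came from 2.15 in the hypoxia replicate 1 pair with HIF-1a against −0.12 to 0.38 in the other 5. Another detected Slc16a3 probe averaged −0.03. Immediate early and stress genes had 34 measured of 40, 0 called by limma and 3 lower at an unadjusted p under 0.05, with a median of −0.03. These were Gadd45b, a stress sensor (−0.28), the heat shock gene Hspa1a (−0.25) and the stress factor Atf3 (−0.19, lower in 6 of 6 pairs). Cell cycle genes had 42 measured of 48, 0 called by limma, 0 at an unadjusted p under 0.05 and a median of −0.02, with Pcna at −0.12 and Cdk1 at 0.11. Endothelial markers had 2 measured of 15, Flt1 at 0.00 and Egfl7 at −0.02, and 0 were called.

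The same 2 genes were called at each oxygen level and with either HIF-1a state. Over the 4 hypoxia pairs limma called 2 genes (0.0208%), Foxa2 at 3.93 ± 0.27 and Nckap1l at 1.69 ± 0.11 (SE). Over the 2 normoxia pairs it called 2 (0.0208%), Foxa2 at 3.24 ± 0.38 and Nckap1l at 1.93 ± 0.16. When either normoxia pair was left out, 0 genes were called in normoxia by limma, with 27 and 47 at an unadjusted p under 0.05. Over the 3 pairs with the HIF-1a plasmid it called 2 (0.0208%), Foxa2 at 3.89 ± 0.33 and Nckap1l at 1.84 ± 0.13. Over the 3 pairs without it 2 were called (0.0208%), Foxa2 at 3.51 ± 0.33 and Nckap1l at 1.70 ± 0.13. Hectd2 had differences of 0.75 in hypoxia and 0.97 in normoxia, and of 0.72 with HIF-1a and 0.92 without it, called in none of the 4.

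The differences themselves were tested as interactions. For FOXA2 by oxygen limma called 0 genes (0%), with 57 at an unadjusted p under 0.05. For Foxa2 the difference of effects, hypoxia minus normoxia, was 0.70 ± 0.46, for Nckap1l −0.24 ± 0.20, for Ifnb1 −0.50 ± 0.29 and for Csf2 −0.55 ± 0.35 (SE; adjusted p = 1 for each). Its smallest p belonged to Pigs, of the machinery that attaches lipid anchors to proteins, at 0.80 ± 0.24, and to Plek2, a membrane-binding cytoskeletal regulator, at −0.66 ± 0.20, each with an adjusted p of 1. For FOXA2 by the HIF-1a plasmid limma called 0 genes (0%), with 777 at an unadjusted p under 0.05. The leading genes were Uba6, a ubiquitin-activating enzyme, and Eef2, the elongation factor. Uba6 differed by −0.67 to −0.19 in the 3 pairs with HIF-1a and by 0.31 to 0.64 in the 3 without it (interaction −0.94 ± 0.19, adjusted p = 0.609). Eef2 differed by 0.54 to 1.15 with HIF-1a and by −0.39 to 0.00 without it (interaction 0.98 ± 0.20, adjusted p = 0.609). Of the pairs with HIF-1a, 2 crossed slides and both hypoxia pairs were wide ones. With slide as a term the interaction count was 113, and the count for the effect with HIF-1a was 196. In that fit the 2 pairs that crossed slides no longer inform the effect with HIF-1a. It is the difference of the hypoxia replicate 2 pair with HIF-1a alone, which is a wide pair.

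The wide pairs can be seen in the spread over all genes. The standard deviation of the pair difference was 0.18 to 0.21 in 4 pairs, 0.48 in the hypoxia replicate 1 pair with HIF-1a and 0.42 in the hypoxia replicate 2 pair with HIF-1a. In these 2 pairs 273 and 45 genes were more than 2-fold higher with FOXA2 and 22 and 123 more than 2-fold lower, against 2 to 5 higher and 0 to 5 lower in each of the other 4. The first of them held the array of the highest mean intensity, 559. Nckap1l ranked 101st among the higher genes there and between 2nd and 3rd in the other 5 pairs. Without both of these pairs, a setting chosen after seeing the data, 3 genes were called, Foxa2, Nckap1l and Hectd2. The HIF-1a plasmid itself, compared over the same 12 arrays, gave 1 called gene (0.0104%), Hif1a, with 922 genes at an unadjusted p under 0.05.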

How the data were processed

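RNA of 12 samples was hybridised to Mouse-6 BeadChips. The authors deposited linear probe intensity, not normalized per the file headers and values, for 45281 probes. The authors deposited a detection p-value beside each. A second table that the authors deposited holds processed intensity for 26415 probes and was used only as an alternative. Its background correction and the software behind both tables are not given in the sources used here.

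R 4.3.3 and its package limma 3.58.1 were used, with neqc for the intensities (background from the detection p-values, offset 16, quantile normalization, log2). A probe entered if its detection p-value was below 0.01 on 2 arrays or more, which 17436 passed. Of these, 14981 had 1 gene symbol in the platform annotation. A gene with no named probe there is not among the detected genes, whatever its level. The detected probe of highest mean stood for each gene, giving 9609 genes, 3682 of them with several detected probes. Of 21576 annotated probes in the processed table, 21542 were matched to the RefSeq gene table. No probe coordinates were used.

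The fit was pair (6 levels) plus FOXA2, with 5 residual degrees of freedom, lmFit and eBayes, and Benjamini-Hochberg adjustment over all genes. Effects by oxygen or HIF-1a and interactions came from the same arrays and pool the spread over all pairs, and the lone normoxia arrays are assumed to vary like the hypoxia ones. Replicate numbers come from the labels. In hypoxia, same-numbered arrays deviated together from their group means in all 6 comparisons of transfections, at r of 0.286 to 0.782 across genes. The numbers were used to pair the arrays. Outside FOX_HIF_HYPOXIA, hypoxia replicate 1 lay on slide 1 and replicate 2 on slide 2, so slide and replicate cannot be told apart there. In the comparisons with FOX_HIF_HYPOXIA, both of whose arrays lay on slide 2, r was 0.286 to 0.514. Values after ± are standard errors, and intervals are 95%. The number of arrays limits the precision. The fit was tested on simulated data.

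The comparison, the gene lists and the rule for named genes were chosen with earlier results of these data known. The rule took Foxa2, Hif1a, Hes6, Sox9, Kdm3a and Nckap1l, up to 10 genes in each direction (called genes by size, then by smallest p) that differed the same way in all 6 pairs, up to 5 genes in each direction of each interaction, and up to 4 members of each list. Other genes are named as members of a list or a marker set. The cytokine list was chosen after seeing values. Alternatives changed the block, slide, background correction, normalization, filter, probe rule, moderation and pairs used.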

Additional observations from a re-analysis of the deposited data

Results flagged for a closer look

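Of 102 sets of 6 values examined (pair differences of the 97 named genes and array summaries), 8 held a value far from the other 5, and chance flags about 1 in 20. In the hypoxia replicate 1 pair with HIF-1a, the pair difference stood apart for Slc16a3 at 2.15, Hadhb at 2.0, Hif1a at 0.845, Kdm3a at 0.392 and Gata6 at −0.731. The FOXA2 array of that pair also had the highest mean probe intensity of the 6 arrays with FOXA2, 559, and it lay on another slide than its partner. For Hadhb the 6 arrays with FOXA2 were at 10.01 to 10.33, and of those without it the partner in this pair was at 8.07 and the other 5 at 10.16 to 10.33. For Slc16a3 the FOXA2 array of this pair was at 8.65 and the other 5 with FOXA2 at 4.79 to 6.56, against 4.47 to 6.54 without it. Car9, a HIF target that encodes a carbonic anhydrase, stood apart at −0.784 in the hypoxia replicate 2 pair with HIF-1a. Its other detected probes gave mean differences of 0.00 and 0.13. Lce1g stood apart at −0.931 in the hypoxia replicate 2 pair.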

How the results depend on the processing

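The count of genes called with FOXA2 stayed at 2 or 3 in 23 of 24 alternatives and was 2 to 3 when 1 pair was left out. Within slide 2 alone it was 29, from 2 pairs and 1 residual degree of freedom, with Ifnb1 at −1.40, Csf2 at −1.67, Lrrn3 at 1.11 and Lcn2 at −0.89 among them. Foxa2 was called in all 23 alternatives that gave it a value, Nckap1l in all 22 and Hectd2 in 13 of 23. With no replicate block Hectd2 kept its difference of 0.82 at an adjusted p of 0.461. Its range was 0.66 to 0.88. Leaving out 1 pair gave 0 to 2 genes in normoxia, 1 to 2 with HIF-1a and 1 to 2 without it. With the replicate block and slide as a term, counts were 1 in normoxia, 196 with HIF-1a and 113 for the interaction with HIF-1a. The effect with HIF-1a there rests on the hypoxia replicate 2 pair with HIF-1a alone, as the other pairs with HIF-1a crossed slides. Why the counts changed was not tested further. Normexp with an offset of 50 gave 0 in normoxia. The requirement of detection on all 12 arrays drops Nckap1l by construction and left 1 gene in hypoxia, in normoxia, with HIF-1a and without it. Trend and robust moderation left 1 in normoxia, with HIF-1a and without it. Of 2197 values of named genes under alternatives, 2183 kept their side of the threshold, 10 were weaker, 4 stronger, and 0 called values changed sign. The 2183 include values that were not called and changed sign, as for Hes6, which ran from −0.23 to 0.14.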
